A study of Homo sapiens with 2 samples.

Results

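The plasminogen activation genes described here are 7 of the 58302 genes counted in HK-2 cells. They are PLAT and PLAU, which encode the tissue-type and urokinase-type plasminogen activators; PLAUR, the urokinase receptor; PLGRKT, a plasminogen receptor; and the serpin genes SERPINE2, SERPINB2 and SERPINF2. Members were taken by gene symbol from both count files, all 7 were found, and 6 were measured, meaning that they reached 1 CPM (a count scaled to library size) in at least 1 library. The set was chosen in part because PLAT is abundant and lower in the Ad-Bmal1-labelled library, so the ratios below are a description of these libraries and support nothing by themselves.

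HK-2 cells are an immortalised human line of renal proximal tubule origin. All cells, grown in medium with 10% fetal bovine serum, were infected with an adenovirus for 24 h before RNA extraction. In the group Ad-Bmal1 the virus carried the coding sequence of Bmal1, the clock transcription factor, and in the control group Ad-GFP it carried GFP (green fluorescent protein). Each group has 1 library and no library is from uninfected cells, so no difference has a replicate check, no p-value or SD can be given, and what the viruses share is not measured.

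Plasmin is the protease that dissolves fibrin and degrades pericellular matrix. It is made from circulating plasminogen when PLAT or PLAU cuts that precursor, mostly on fibrin or on a cell surface, where PLAUR holds urokinase and proteins such as PLGRKT hold plasminogen. Serpins are suicide inhibitors that trap a protease in a covalent complex: SERPINE2 (protease nexin 1) inhibits thrombin and both activators, SERPINB2 inhibits the activators, and SERPINF2 (alpha-2-antiplasmin) inhibits plasmin itself. In kidney the system is known for urokinase made by tubular cells and for its part in matrix turnover after injury.

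Promoter sequence bears on this study because CLOCK and BMAL1 bind the E-box, CACGTG. RefSeq windows on GRCh38.p14, from 250 bases before to 50 after each annotated start, were found for 5 of the 7 genes, with 2 windows each for PLAU and SERPINE2; PLAT and SERPINF2 had no entry. The motifs searched on both strands were the E-box, the AP-1 site TGANTCA and the NF-Y box CCAAT, which is ATTGG on the other strand; the TBP box TATAAA was searched on the gene's strand. No match of one motif overlapped another. Of 35116 such windows in the table, 7.26% held the E-box, 7.71% the AP-1 letters, 34.6% the NF-Y box and 7.33% the TBP box. The windows of SERPINE2, PLAUR and SERPINB2 that held an E-box or AP-1 match are shown for their 250 bases before the start, 5′ to 3′ on the gene's strand, with motif matches in capitals. They lie at chr2:224031479-224031728 (minus strand), chr19:43670170-43670419 (minus strand) and chr18:63887455-63887704 (plus strand).
SERPINE2: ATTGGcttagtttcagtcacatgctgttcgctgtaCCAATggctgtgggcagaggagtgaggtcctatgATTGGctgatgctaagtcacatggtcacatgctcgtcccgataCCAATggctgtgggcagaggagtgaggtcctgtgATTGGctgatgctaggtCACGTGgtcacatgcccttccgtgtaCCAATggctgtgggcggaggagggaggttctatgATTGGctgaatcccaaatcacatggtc
PLAUR: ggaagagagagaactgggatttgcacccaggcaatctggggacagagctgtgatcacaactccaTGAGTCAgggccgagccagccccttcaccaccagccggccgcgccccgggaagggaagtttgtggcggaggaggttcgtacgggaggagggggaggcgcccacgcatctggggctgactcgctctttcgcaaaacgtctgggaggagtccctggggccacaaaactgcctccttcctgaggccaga
SERPINB2: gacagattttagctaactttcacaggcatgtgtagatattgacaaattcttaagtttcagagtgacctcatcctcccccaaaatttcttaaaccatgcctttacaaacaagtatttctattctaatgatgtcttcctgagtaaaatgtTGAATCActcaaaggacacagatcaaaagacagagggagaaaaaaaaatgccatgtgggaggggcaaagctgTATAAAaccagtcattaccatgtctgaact

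PLAT and SERPINF2, without a window, were not searched. Of the 5 genes with windows SERPINE2 alone held an E-box match, whose first base lay at -87 from the more downstream of the 2 annotated starts. The same window held 7 NF-Y box matches, on either strand, while 0.991% of all windows held 4 or more. Those that read CCAAT sit in a repeat, and those that read ATTGG lie outside its copies. The 17 bases taccaatggctgtgggc occur 3 times, starting at -217, -140 and -63, and of all the windows 1, this one, holds 3 copies. The other SERPINE2 window, at the upstream start, held none of the 4 motifs, and counts per gene cannot tell which start was used. PLAUR held an AP-1 match at -186 and SERPINB2 one at -102, with a TBP box at -30. PLGRKT held 3 NF-Y boxes. PLAU held 1 in its first window, and its second window held no match. A match describes these letters and is not a measured binding site.

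**Figure D1:**
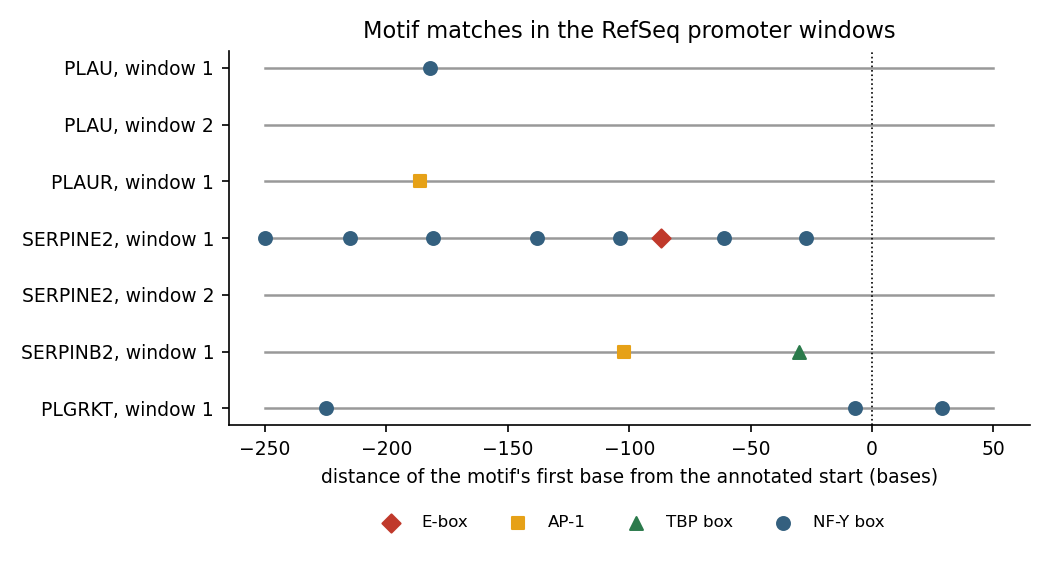
Positions of motif matches (first base, in bases from the annotated start, dotted line) in the 7 RefSeq promoter windows of 5 genes; the NF-Y box is CCAAT and the TBP box TATAAA. The E-box appears once, in SERPINE2 window 1, among 7 NF-Y boxes.

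A second sequence feature separates the plasminogen-binding proteins. Plasminogen docks on lysine residues, above all a lysine at the very end of a protein, and the last 30 coding bases before the stop codon (GENCODE v29, longest coding sequence, minus strand of GRCh38 for each) are shown with the final codon in capitals. PLGRKT (chr9:5358242-5358271), the enolase gene ENO1 (chr1:8861363-8861392) and S100A10 (chr1:151983166-151983195) end in a lysine codon, AAA or AAG, while ANXA2 (chr15:60347633-60347662), the annexin that anchors S100A10 at the membrane, does not. Of the binding proteins whose ends are not shown, KRT8 ends in the lysine codon AAG and HMGB1 in GAA, which is not one. The end of RUVBL2, another binding protein, was not examined.
PLGRKT: aaggaacagagtagattcttcatagacAAA
ENO1: ggcaggaacttcagaaaccccttggccAAG
S100A10: gtagtacacatgaagcagaagggaaagAAG
ANXA2: gcgctgctgtacctgtgtggtggagatGAC

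The libraries were of like depth, with 20032652 counts for Ad-GFP and 20051735 for Ad-Bmal1, and 1 CPM was worth 20.3 and 19.8 counts in turn. Mitochondrial genes held 1.52% and 1.73% of the counts. BMAL1, the targeted gene, had 204 counts in the Ad-GFP-labelled library and 133 in the Ad-Bmal1-labelled library, a ratio of 0.667 (95% counting interval 0.532 to 0.834). The targeted gene thus went against the label, and each direction below holds for the labelled libraries with that limit. Of 7 epithelial markers 6 were measured, CDH2 among them, but CDH1 was not, at 1 count in the Ad-GFP-labelled library and 4 in the other. Of 12 proximal tubule markers 2 were measured (GGT1 and PDZK1), and LRP2, SLC22A6 and SLC22A8 were at 0 counts in both libraries. Intervals of ratios and shares are exact binomial (Clopper-Pearson), those of levels are exact Poisson, and both cover counting error only.

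Among the 6 measured members PLAT was 2.11-fold lower in the Ad-Bmal1-labelled library, PLAUR and PLGRKT were 1.36-fold and 1.35-fold lower, PLAU was close to level, SERPINE2 was slightly higher and SERPINF2 was not distinguishable between libraries. The size rule asked for a measured gene with a ratio of 2-fold or more in either direction and an interval clear of 1. By that rule 1 of the 6 was lower, PLAT, and none was higher; over all 13231 measured genes 1.74% were lower and 1.13% higher. Intervals of 4 members lay wholly below 1 and that of 1 above; over all measured genes 21.6% lay below and 23.8% above. Since the set was picked partly on this contrast, nothing is read from those counts. Whether an interval clears 1 also depends on a gene's depth, and the all-gene shares here and below were not matched for depth. In bulk RNA, fewer expressing cells and less RNA per cell cannot be told apart.

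**Figure D2:**
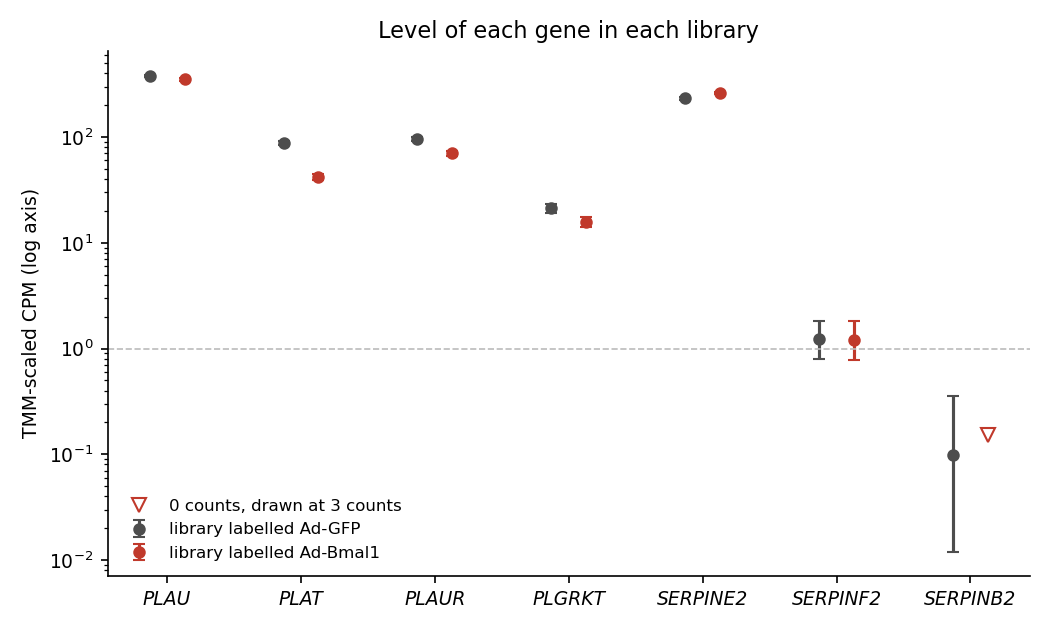
Level of each gene in each library, in TMM-scaled CPM on a log axis; bars are exact 95% Poisson intervals of the count, the dashed line marks 1 CPM and the open triangle a count of 0 drawn at 3 counts. PLAT stands apart between the libraries at 88.4 and 41.8 CPM, while PLAU, at 380.7 and 350.0 CPM, is the highest in both.

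PLAU (ENSG00000122861, chromosome 10, 73909177 to 73917497, plus strand, GRCh38) encodes urokinase, named for its discovery in urine, and was the most abundant member. It had 7719 counts in the Ad-GFP-labelled library and 6935 in the Ad-Bmal1-labelled library, or 380.7 and 350.0 CPM. The libraries differed little, with a ratio of 0.919 (0.890 to 0.9497), an interval that lay below 1. C10orf55 overlaps PLAU on the other strand over 7529 bases and had 48 and 32 counts, 0.622% and 0.461% of the PLAU counts. No source used here gives the strand setting of the counting. Whether reads of the pair were separated is therefore not known. The antisense gene was counted at a small fraction of PLAU, which does not bound the effect of shared reads on PLAU.

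PLAT (ENSG00000104368, chromosome 8, 42175233 to 42207724, minus strand) encodes the activator used as a clot-dissolving drug, which works best when bound to fibrin. It had 1792 counts, or 88.4 CPM (84.4 to 92.6), in the Ad-GFP-labelled library and 829, or 41.8 CPM (39.0 to 44.8), in the other. The counting intervals are far apart, and the ratio was 0.473 (0.435 to 0.514). PLAT is just past the 2-fold line: the bound of its interval nearest 1 corresponds to 1.94-fold lower. Of the 2948 measured genes with a mean CPM at least that of PLAT, 6 others had a lower ratio, and 8, or 0.271%, were lower by the size rule, PLAT included. The set was chosen in part because PLAT is abundant and lower, so this rank partly restates the choice and supports nothing. No annotated gene overlaps PLAT.

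Together the activators had 9511 and 7764 counts, a ratio of 0.835 (0.8105 to 0.861). Their make-up differed more than their sum. PLAT supplied 18.8% of the activator counts (18.1 to 19.6%) in the Ad-GFP-labelled library and 10.7% (9.999 to 11.4%) in the Ad-Bmal1-labelled library. These shares need no scaling between libraries, because both counts come from the same library. Since the set was chosen in part for a lower PLAT, the differences in sum and share partly restate that choice.

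PLAUR (ENSG00000011422, chromosome 19, 43646095 to 43670547, minus strand) encodes the membrane-anchored receptor that concentrates urokinase at the cell surface. It had 1934 and 1390 counts, 95.4 and 70.2 CPM, in the Ad-GFP- and Ad-Bmal1-labelled libraries. The receptor was therefore lower in the latter, at a ratio of 0.735 (0.686 to 0.788), short of 2-fold. Of the 5658 genes whose counts sum to 1000 or more, 3.59% had a ratio below that of PLAUR, 0.194% below that of PLAT and 24.97% below that of PLAU. The share for PLAT partly restates how the set was chosen. Relative to its ligand, PLAUR made up 20.04% (19.2 to 20.9%) of the PLAUR and PLAU counts in the Ad-GFP-labelled library and 16.7% (15.9 to 17.5%) in the other.

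PLGRKT (ENSG00000107020, chromosome 9, 5357973 to 5437878, minus strand), whose product holds plasminogen by the terminal lysine shown above, had 429 and 310 counts, 21.2 and 15.7 CPM. It was lower in the Ad-Bmal1-labelled library, at a ratio of 0.739 (0.637 to 0.858), close to that of PLAUR. The interval of PLAUR lies within that of PLGRKT.

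**Figure D3:**
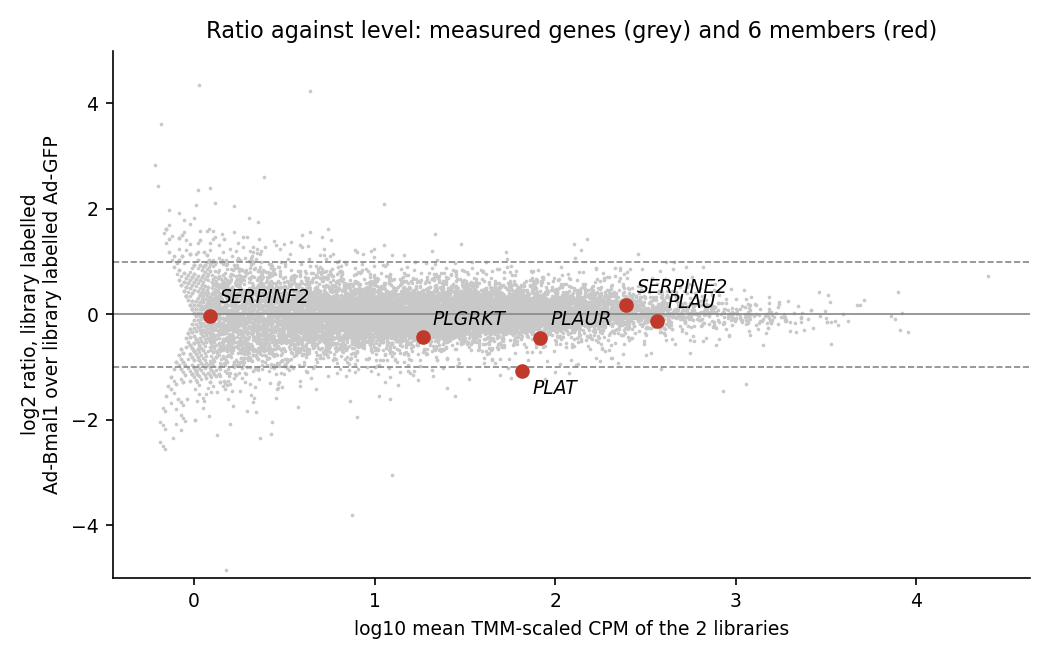
Log2 ratio (Ad-Bmal1-labelled library over Ad-GFP-labelled library) against log10 mean CPM for all 13231 measured genes (grey) and the 6 measured members (red); dashed lines mark 2-fold. PLAT, for which the set was chosen in part, lies just below the lower line at -1.08, and the other members lie between the lines.

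SERPINE2 (ENSG00000135919, chromosome 2, 223975112 to 224039319, minus strand), the most abundant inhibitor of the set, went the other way. It had 4708 counts in the Ad-GFP-labelled library and 5178 in the Ad-Bmal1-labelled library, 232.2 and 261.3 CPM. The ratio was 1.12 (1.08 to 1.17), and its interval was the single one among the members that lay above 1. Set against this inhibitor, PLAT and PLAU together made up 66.9% (66.1 to 67.7%) of the summed counts of the 3 genes in the Ad-GFP-labelled library and 59.99% (59.1 to 60.8%) in the other. PLAT alone made up 27.6% (26.5 to 28.7%) and 13.8% (12.9 to 14.7%) of its sum with SERPINE2. These shares hold the PLAT counts and so partly restate how the set was chosen. RNA counts say nothing of how much active protease or complex was present.

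SERPINF2 (ENSG00000167711, chromosome 17, 1742836 to 1755268, plus strand), a serpin made mainly by liver, was at trace level. It had 25 and 24 counts, 1.23 and 1.21 CPM, and its ratio of 0.982 had an interval from 0.537 to 1.79. A difference of up to about that size could not have been detected at this depth. The hepatocyte marker list differed between libraries, from a summed 2.76 CPM in the Ad-GFP-labelled library to 18.2 in the Ad-Bmal1-labelled library. Of its 11 markers 4 were measured and none was at 0 in both. By the size rule 3 of the 4 were higher, as were 1.13% of all measured genes. They were ALB at 9 and 165 counts, HP at 2 and 40 and AMBP at 13 and 53. The other, FGB, had 21 counts in each library. The part of this list in the serpin values was not tested.

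SERPINB2 (ENSG00000197632, chromosome 18, 63871692 to 63903890, plus strand), known from activated monocytes and keratinocytes, was not measured. It had 2 counts in the Ad-GFP-labelled library and 0 in the other, where a count of 0 allows a level of up to 0.151 CPM (3 counts). Both lie at or under that floor, so no fold is given. SERPINB10, which overlaps SERPINB2 on the same strand, had 0 counts in both libraries.

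To compare levels between genes, CPM was divided by the length in kilobases of the longest coding transcript (2.71 kb for PLAT, 2.66 for PLAU, 1.61 for PLAUR, 2.57 for SERPINE2, 0.932 for PLGRKT). In the Ad-GFP-labelled library the order was PLAU at 143.2 CPM per kb, SERPINE2 at 90.4, PLAUR at 59.2, PLAT at 32.7, PLGRKT at 22.7 and SERPINF2 at 0.540. In the Ad-Bmal1-labelled library the levels were 131.7 for PLAU, 101.7 for SERPINE2, 43.6 for PLAUR, 16.8 for PLGRKT, 15.5 for PLAT and 0.530 for SERPINF2 CPM per kb. PLAT and PLGRKT thus traded places, but in the latter library their counting intervals overlap (14.4 to 16.5 for PLAT and 15.0 to 18.8 for PLGRKT) and the neighbours do not differ beyond them. Divided by the union of all annotated exons, PLGRKT was above PLAT in both libraries, at 14.2 against 13.4 and 10.5 against 6.32 CPM per kb, so the place of PLAT next to PLGRKT depends on the length used. Among measured genes PLAU stood above 95.7% and 95.4% by level per length in the Ad-GFP- and Ad-Bmal1-labelled libraries, SERPINE2 above 93.4% and 94.0%, and PLAT above 83.1% and 71.1%.

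The genes most like PLAT were sought among 1081 protein-coding genes within 0.32 log2 units of its mean CPM, by distance of the log2 ratio over the 2 libraries. RAD21, a cohesin ring subunit, was nearest, at a ratio of 0.492 (0.450 to 0.539). It was followed by CD83, an immune surface protein gene, at 0.435 (0.397 to 0.476) and HPCAL1, a calcium sensor gene, at 0.546 (0.505 to 0.590). For PLAU, 238 genes lay within that window, and PARK7, KIF2C and XRCC5 were nearest, with ratios of 0.921, 0.913 and 0.928. With 2 libraries a pattern is 1 ratio, so such likeness is slight.

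Around the members, 5 further lists of the plasminogen system held 90 genes, of which 45 were measured. By the size rule 1 of the 45, MMP1, was lower in the Ad-Bmal1-labelled library and none was higher, against the 1.74% and 1.13% of all measured genes given above. Intervals of 22 of the 45 lay below 1 and of 13 above, beside 21.6% and 23.8% of all measured genes. No test compares the lists with other genes, and nothing particular to them is read from these counts. The median log2 ratio of the 45 was -0.09, beside 0.00 over all measured genes and -0.28 over the 6 measured members.

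Plasminogen-binding surface proteins were abundant and differed little. All 6 listed were measured, and the median log2 ratio was -0.05. Intervals of 4 lay below 1 and of 1 above, beside 21.6% and 23.8% of all measured genes. The interval above 1 was that of RUVBL2, at a ratio of 1.06 (1.025 to 1.09). ANXA2 had 26569 and 20925 counts, a ratio of 0.806 (0.791 to 0.821), whereas its partner S100A10, with 5951 and 5944 counts, had 1.02 (0.986 to 1.06). Ratios were 0.872 (0.8465 to 0.899) for HMGB1, a chromatin protein that can be released from cells, and 0.953 (0.9345 to 0.972) for the keratin gene KRT8. ENO1, the glycolytic enzyme that also binds plasminogen at the surface, had 148528 and 141300 counts and a ratio of 0.973 (0.966 to 0.9805), which became 1.01 once the dependence on transcript length was taken out, so its direction is uncertain.

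The list of endocytic receptors that clear activator and inhibitor complexes and of urokinase receptor partners held ratios on both sides of 1. Of its 14 genes 11 were measured, and the median log2 ratio was 0.14. Intervals of 7 lay above 1 and of 3 below, beside 23.8% and 21.6% of all measured genes, and with the dependence on transcript length taken out 5 lay above and 4 below. IGF2R, the mannose-phosphate receptor that also binds PLAUR, had 6140 and 11980 counts and a ratio of 1.996 (1.94 to 2.06), just short of the size rule. LRP1, the main clearance receptor of both activators when bound to serpins, had 3708 and 6321 counts and a ratio of 1.74 (1.68 to 1.82), and its relative VLDLR had 1.33 (1.23 to 1.44). These receptors have long transcripts, and once the length dependence was taken out the ratios were 1.68 for IGF2R, 1.47 for LRP1 and 1.16 for VLDLR, with a list median of 0.02. The integrin subunits that partner PLAUR were split, with ratios of 1.496 (1.45 to 1.55) for ITGA5 and 1.54 (1.46 to 1.61) for ITGB3 against 0.831 (0.818 to 0.845) for ITGA3 and 0.942 (0.913 to 0.972) for ITGB1. VTN, which encodes vitronectin, was below 1 CPM in both libraries at 2 and 15 counts.

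**Figure D4:**
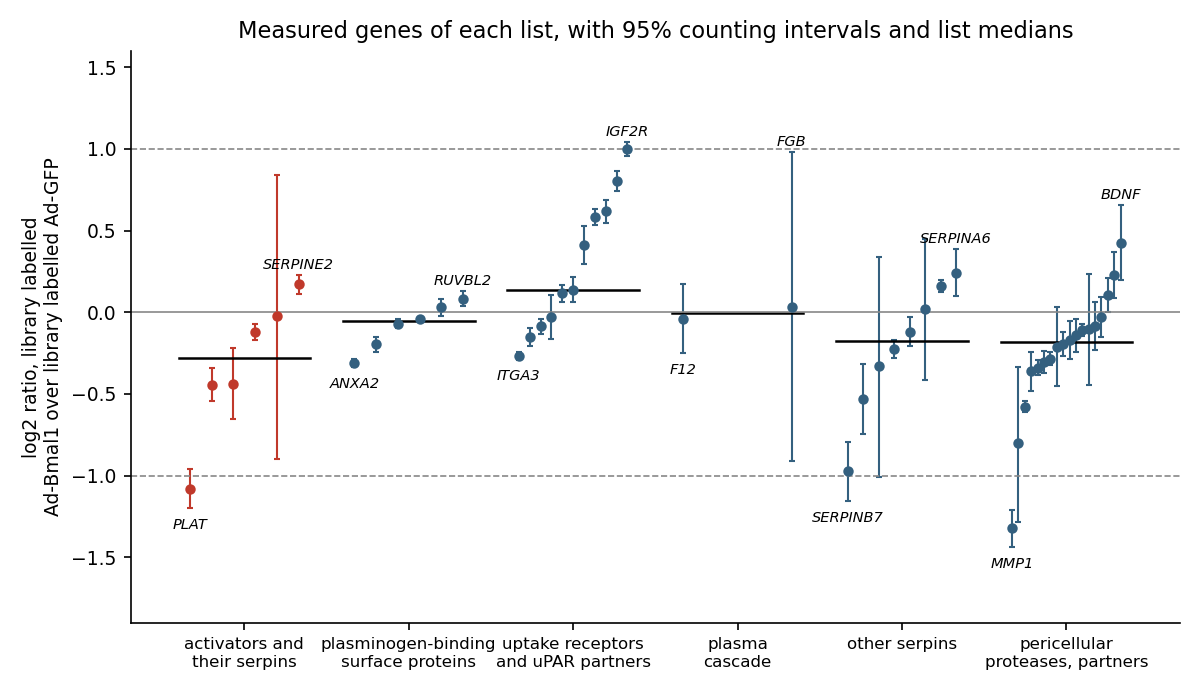
Log2 ratios (Ad-Bmal1-labelled library over Ad-GFP-labelled library) of the measured genes of the set (red) and of 5 lists around it (blue), with 95% counting intervals; black bars are list medians and dashed lines 2-fold. PLAT and MMP1 are the points beyond the lower line, and IGF2R touches the upper line at 0.997.

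The plasma side of the cascade was nearly silent in these cells. Of 12 listed genes 2 were measured, the contact factor gene F12 with 386 and 367 counts and a ratio of 0.973 (0.841 to 1.13), and the fibrinogen chain gene FGB with 21 counts in each library. PLG, which encodes plasminogen, had 1 and 2 counts, no more than the floor of 3 counts, and FGA had 2 and 18.

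Of 30 other serpin genes 8 were measured and 16 had no count in either library. Intervals of 4 lay below 1 and of 2 above, beside 21.6% and 23.8% of all measured genes. None met the size rule, beside 1.74% lower and 1.13% higher over all measured genes, and the median log2 ratio was -0.17. SERPINH1, a collagen chaperone without inhibitory activity, had 11226 and 12277 counts and a ratio of 1.12 (1.09 to 1.15), and SERPINA6, a cortisol carrier, had 1.18 (1.07 to 1.31). SERPINA1, the elastase inhibitor antitrypsin, had 0.855 (0.823 to 0.8875) and SERPINB6 had 0.920 (0.866 to 0.978). SERPINB7, a neighbour of SERPINB2 in the serpin cluster of chromosome 18, had 772 and 384 counts and a ratio of 0.509 (0.449 to 0.576), short of the size rule here but past it when scaled by total counts.

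Of 28 pericellular proteases and their partners 18 were measured, with a median log2 ratio of -0.18. Intervals of 11 lay below 1 and of 3 above, beside 21.6% and 23.8% of all measured genes. MMP1, the interstitial collagenase whose precursor plasmin can activate, had 2251 and 881 counts and a ratio of 0.4005 (0.370 to 0.433). CTSB, a cathepsin that can activate urokinase, had 18880 and 12366 counts and a ratio of 0.670 (0.655 to 0.686). The membrane collagenase gene MMP14 had 0.928 (0.905 to 0.9515). The Kunitz-type inhibitor genes of the list had ratios of 0.821 (0.798 to 0.844) for TFPI2, which inhibits plasmin, 0.865 (0.731 to 1.02) for TFPI, which inhibits the tissue factor pathway and whose interval includes 1, and 0.790 (0.765 to 0.815) and 0.7785 (0.716 to 0.847) for SPINT2 and SPINT1, which inhibit the activators of hepatocyte growth factor. HPN, a membrane protease that can also activate urokinase, had 107 and 60 counts and a ratio of 0.574 (0.411 to 0.794). The 3 genes with intervals above 1 were BDNF, a neurotrophin gene whose precursor plasmin can cut, at 1.34 (1.15 to 1.57), the thrombin receptor gene F2R at 1.17 (1.06 to 1.29) and the protein C receptor gene PROCR at 1.08 (1.001 to 1.16).

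Markers of other cell types in which PLAT, PLAUR or SERPINB2 are known ranged from 0 to levels like those of the members. Of 9 endothelial markers 2 were measured, VWF, KDR, TEK and EMCN were at 0 in both libraries, and the list summed to 2.96 and 2.62 CPM in the Ad-GFP- and Ad-Bmal1-labelled libraries. TIE1 had 28 and 7 counts and a ratio of 0.256 (0.0943 to 0.599), lower by the size rule, as were 1.74% of all measured genes. ERG had 25 and 39 counts and a ratio of 1.596 (0.942 to 2.75). Of the 2 measured proximal tubule markers, PDZK1 was lower by that rule too, with 344 and 148 counts and a ratio of 0.440 (0.361 to 0.535). The other, GGT1, had a ratio of 1.12 (1.07 to 1.16). Of 9 monocyte and macrophage markers CSF1R was measured, at 433 and 407 counts or 21.4 and 20.5 CPM, and PTPRC, LYZ, CD163, FCGR3A and AIF1 were at 0 in both. Of 7 fibroblast markers 4 were measured. The list summed to 79.3 CPM in the Ad-GFP-labelled library and 100.6 in the other. Of that sum COL1A1, a collagen gene, held 63.4 and 84.8 CPM, a ratio of 1.34 (1.24 to 1.44). DCN went the other way, with 130 and 91 counts and a ratio of 0.716 (0.542 to 0.9435). The intervals of LUM and PDGFRB included 1. The part of these markers in the members' values was not tested.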

How the data were processed

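RNA from HK-2 cells was sequenced as paired reads of 150 bp from polyadenylated RNA, per the labels' protocols, with 1 library per group, grouped by sample title. The authors deposited raw counts per Ensembl gene. The submitters' processing notes name HISAT2 and GRCh38 (hg38). How reads were assigned to genes, and whether strand was used, is not given in the sources used here. Depth was 20032652 and 20051735 counts. The number of unused columns of sample values was 0.

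TMM scaling (edgeR 4.0.16, R 4.3.3) gave factors of 1.01 for Ad-GFP and 0.988 for Ad-Bmal1. A quasi-likelihood fit in edgeR was not possible, since single libraries leave no residual degrees of freedom. Each ratio carries an exact 95% conditional binomial interval, which covers counting error only; the reads carry no molecular identifiers and so are not independent molecules. Genes were measured at 1 CPM or more in either library. Positions and lengths are from GENCODE v29, which held 99.5% of the gene identifiers, and promoter windows from RefSeq (GRCh38.p14). Steps ran in Python 3.11.15. The ratios, intervals and size rule alone were tested on counts simulated with known ratios. That simulation held counting noise only, without variation between replicate libraries.

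The members and lists were chosen with earlier results of these data known. Named genes are all members, list genes past the size rule and up to 4 of the highest mean CPM per list, and the 3 nearest genes to PLAT and PLAU. S100A10, LRP1, VLDLR, ITGB3, VTN, PLG, FGA, SERPINB7, SERPINB10, SPINT1, TFPI, HPN, BDNF, F2R, PROCR, TIE1, ERG and COL1A1 were named after their values were seen. So were CDH1, CDH2, GGT1, PDZK1, RUVBL2, ALB, HP, AMBP, DCN, LUM and PDGFRB. Alternative scalings were size factors from DESeq2 1.42.0, upper quartiles, total counts, totals that leave out mitochondrial genes and the 20 highest genes, TMM from protein-coding genes, removal of the length trend, thinning, other filters and fold sizes, and a prior count of 2. Exon-union lengths were added after seeing the data. Some other genes of this pathway are not reported here.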

Additional observations from a re-analysis of the deposited data

How the results depend on the processing

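PLAT stayed lower by the size rule under each scaling, filter and thinning tried and at a size of 1.5-fold; at 4-fold the count of lower members was 0. Its ratio ran from 0.462 to 0.474 over 7 alternatives and was 0.484 with the length trend removed. The other members kept their side of 1 under all 8 alternatives, except SERPINF2, whose interval includes 1 and whose ratio was 1.02 with the length trend removed. The members' median log2 ratio was -0.44 under a filter of 10 CPM, which leaves out SERPINF2. With the length trend removed, the median of uptake receptors was 0.018, the plasminogen-binding proteins had 2 intervals below 1 and 3 above, and ENO1 had a ratio of 1.01, on the other side of 1. With no filter, medians were 0.41 for uptake receptors and 0.45 for the plasma cascade, the latter turned from -0.003. The cascade then had 2 intervals above 1 and 2 genes higher by the size rule. Uptake receptors had 1 higher, other serpins 1 lower and pericellular proteases 2 lower. Over all 22827 genes with a count, 399 were lower and 292 higher with no filter. Apart from MMP1, these list calls are of genes below 1 CPM in both libraries, such as FGA at 2 and 18 counts and VTN at 2 and 15. Under total counts 1 of the other serpins, SERPINB7, was lower by the size rule, and over all genes the share of lower among called genes was 67.1%, against 60.7%. BMAL1 had a ratio below 1 under total counts too. No paired analysis was possible because each group has 1 library, and for the same reason no library could be left out. Depth limits SERPINB2 and SERPINF2 most.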
